A study of Mus musculus with 6 samples.

Results

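The nuclear-encoded subunits of the oxidative phosphorylation machinery were taken from the gene names of the deposited table: the Ndufa, Ndufb, Ndufc, Ndufs and Ndufv genes of complex I, Sdha to Sdhd of complex II, the Uqcr genes and Cyc1 of complex III, the Cox4 to Cox8 genes of complex IV, the Atp5 genes of complex V, and Cycs. Genes named as assembly factors (Ndufaf, Uqcc and Sdhaf) were left out, and Cox7a2l stayed in complex IV by its name alone. The rule found 80 of 11955 rows, and all 80 had a mean of at least 0.5 FPKM (fragments scaled to transcript length and to the library's mapped fragments) over the 6 libraries and entered the test across genes. Of the 80, 36 belong by name to complex I, 4 to complex II, 9 to complex III, 15 to complex IV and 15 to complex V, and Cycs encodes cytochrome c. Ndufa4 is counted with complex I by its name, although it is known as a subunit of complex IV. RNA sequencing covered mouse samples labelled as chondrocytes, 3 of the genotype Eldr cKI and 3 of the genotype control. Eldr is a long noncoding RNA, which the series title places in chondrocyte senescence. The promoter or cell type that drives the knock-in, the age of the mice and whether samples came from separate animals are not given in the sources used here, so the spread between libraries may be technical.

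Oxidative phosphorylation takes place in the inner mitochondrial membrane. Complexes I and II pass electrons from NADH and succinate to ubiquinone, complex III passes them to cytochrome c, complex IV hands them to oxygen, and complex V uses the proton gradient built on the way to make ATP. Most subunits are encoded in the nucleus and imported, a few are encoded in mitochondrial DNA, and several complex IV subunits exist as a ubiquitous and a heart and skeletal muscle isoform. Heart muscle is among the tissues richest in these proteins, whereas cartilage cells rely largely on glycolysis.

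The libraries were shallow and uneven. The estimated fragments behind them numbered 69342 to 239144 in Eldr cKI and 64167 to 167567 in control. For this, the most common value of FPKM times length among genes with 1 transcript was taken as 1 fragment. Mitochondrially encoded genes held 8.51% to 43.9% of all FPKM in Eldr cKI and 29.1% to 68.3% in control, and predicted genes with Gm names held 67.3% in Eldr cKI replicate 1 and 4.97% to 17.9% elsewhere. The labelled cell type was not borne out by its markers: of 12 chondrocyte markers 6 had a row, their sum was 1.25 to 4.23 FPKM in Eldr cKI and 5.01 to 12.7 FPKM in control, and Col2a1, the main cartilage collagen, was listed at 0 in all Eldr cKI libraries and in control replicate 3. Cardiomyocyte markers, 12 of 13 with a row, summed to 1719 to 5391 FPKM in Eldr cKI and 1178 to 2546 FPKM in control. Hepatocyte markers, all 8 with a row, summed to 74.5 to 226 FPKM in Eldr cKI and 111 to 7325 FPKM in control, highest in control replicate 3. Photoreceptor markers, all 6 with a row, summed to 0 to 5.51 FPKM in Eldr cKI and to 792, 1194 and 0 FPKM in control replicates 1, 2 and 3. Erythroid markers, all 5 with a row, summed to 46.9 to 665 FPKM in Eldr cKI and 418 to 977 FPKM in control, and none of 4 brown adipocyte markers had a row. The part of these cell types in the results below was not tested, and in such bulk RNA fewer cells of a type and less RNA per cell cannot be told apart.

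Promoters of 65 of the 80 genes were found in RefSeq's table for GRCm38.p6, each 300 bases long. The letters GCGCA, any base and GCGC, a core of the site of NRF1 (nuclear respiratory factor 1, a known activator of respiratory chain genes), occurred on either strand in the promoters of 17 of 65 genes (26.2%), against 4.603% of all 32851 promoters. The ETS letters ACTTCCGG occurred in 7.69% against 3.89%, the E-box letters CAGCTG in 9.23% against 16.3%, and the TATA box letters TATAAA in 9.23% against 13.6%. The motifs and the promoters shown were chosen with sequences and values in view, and a match is a description of the letters, not of binding. The 4 stretches here run from 250 bases before the annotated start site to 25 after it, 5′ to 3′, with the matches in capitals. They belong to Cox6a1 and Ndufb4, the first higher and the other lower in each Eldr cKI library than in any control, and to the isoform pair Cox8b and Cox8a.
Cox6a1 (chr5:115348934-115349208, minus strand): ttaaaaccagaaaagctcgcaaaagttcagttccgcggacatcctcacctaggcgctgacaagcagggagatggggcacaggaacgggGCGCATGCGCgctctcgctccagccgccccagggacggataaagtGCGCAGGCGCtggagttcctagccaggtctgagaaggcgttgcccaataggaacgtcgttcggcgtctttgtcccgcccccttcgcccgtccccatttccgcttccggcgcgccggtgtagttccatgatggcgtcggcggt
Ndufb4 (chr16:37654344-37654618, minus strand): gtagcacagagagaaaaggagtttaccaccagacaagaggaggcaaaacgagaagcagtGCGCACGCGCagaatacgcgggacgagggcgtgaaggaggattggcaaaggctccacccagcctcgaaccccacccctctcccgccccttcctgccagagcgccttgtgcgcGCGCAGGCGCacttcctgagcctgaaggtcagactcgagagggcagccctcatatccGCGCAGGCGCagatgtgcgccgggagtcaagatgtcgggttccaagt
Cox8b (chr7:140900422-140900696, minus strand): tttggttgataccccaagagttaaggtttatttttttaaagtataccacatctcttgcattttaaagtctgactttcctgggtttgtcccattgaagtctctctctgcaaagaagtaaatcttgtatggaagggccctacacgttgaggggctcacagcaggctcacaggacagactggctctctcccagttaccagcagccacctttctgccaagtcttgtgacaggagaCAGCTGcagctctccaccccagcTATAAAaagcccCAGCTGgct
Cox8a (chr19:7217592-7217866, minus strand): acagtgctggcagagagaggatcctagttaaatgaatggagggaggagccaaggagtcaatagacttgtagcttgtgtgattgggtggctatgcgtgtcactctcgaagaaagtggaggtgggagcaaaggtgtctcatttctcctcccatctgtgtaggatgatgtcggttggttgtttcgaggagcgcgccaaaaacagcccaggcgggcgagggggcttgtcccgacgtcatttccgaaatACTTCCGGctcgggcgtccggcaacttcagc
Cox6a1 held 2 NRF1 matches and Ndufb4 held 3, none overlapping another motif. Cox8b, the heart and muscle isoform, held 2 matches to the E-box letters, at -19 to -14 and 17 to 22 from the annotated start site. Its 1 match to the TATA box letters, at 5 to 10, lay after that site. Cox8a, the ubiquitous isoform, held 1 ETS match across the start site in the stretch shown, and 2 in its whole promoter of 300 bases. An NRF1 match was therefore shared by a gene with higher and a gene with lower values in Eldr cKI.

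No subunit gene passed the test of Eldr cKI against control, and the group as a whole stayed within the spread of the libraries. Past a Benjamini-Hochberg adjusted p of 0.05 (limma over 10772 genes), 0 of 80 were higher, beside 0.00% of all genes, and 0 of 80 were lower, beside 0.0278%. At an unadjusted p under 0.05, 3 of 80 were higher against 0.678% of all genes, and 3 of 80 were lower against 1.66%. In either direction that was 6 of 80 against 2.34% of all genes. Among genes with a mean of 10 to 200 FPKM, where most of the subunits lie, it was 6 of 71 (8.45%) against 8.02% of 1946. The count of subunits was therefore near that of genes at a like level. By the p-values of the authors' deposited table, 1 subunit gene was higher and 1 lower at a p under 0.05, beside 2.16% of the rows in the test, and the smallest q among the 80 was 0.704.

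Mean log2(FPKM + 1) was lower in Eldr cKI for 55 of 80 subunit genes, beside 51.1% of all genes, and higher for 25, beside 48.9%. Once predicted genes were dropped and each library rescaled, 53 of the 80 were higher. The median log2 fold change was -0.44 over the 80 genes and -0.04 over all genes, and with the same rescaling the medians were 0.32 and 0.23. By complex the median was -0.52 for complex I, -0.35 for complex II, -0.75 for complex III, -0.31 for complex IV and -0.22 for complex V. All these medians changed sign once predicted genes, 67.3% of FPKM in Eldr cKI replicate 1, were dropped before rescaling, and none was tested. Over the 80 genes the median stayed negative with libraries only rescaled to the same total (-0.13). It was also negative with mitochondrially encoded genes dropped as well (-0.18) and under quantile normalization (-0.29).

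**Figure D1:**
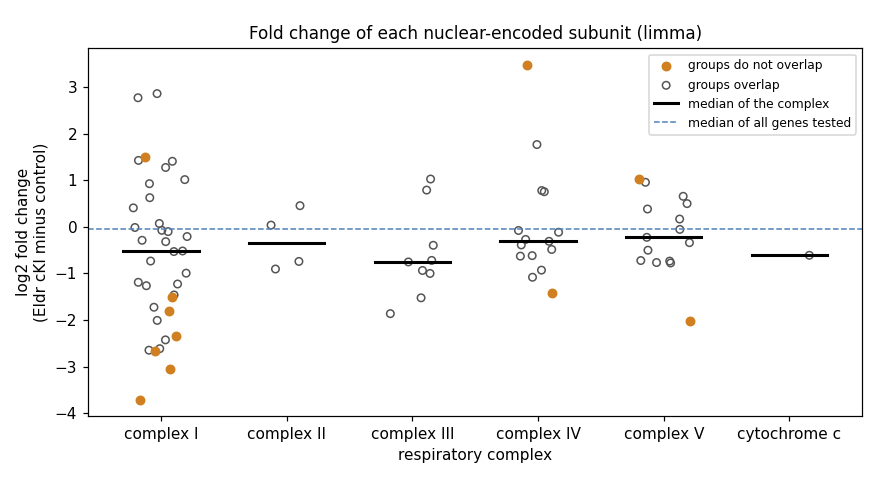
Log2 fold change (vertical axis, Eldr cKI minus control, limma on log2(FPKM + 1)) of each of the 80 genes by respiratory complex. Bars mark the median of each complex, the dashed line the median of all genes tested, and filled points the 11 genes whose Eldr cKI and control libraries did not overlap, 6 of the 8 lower ones in complex I.

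Summed over the 80 genes, FPKM was 2692, 5460 and 3573 in Eldr cKI replicates 1, 2 and 3, against 4309, 4328 and 4312 in the controls. The controls lay within 10.2 FPKM of each other as an SD (mean 4316, n = 3), whereas the Eldr cKI libraries lay on both sides of them (mean 3908 ± 1414, SD, n = 3). This closeness of the controls belongs to the deposited scale: with each library rescaled to the same total FPKM, the sums were 14253, 22855 and 14915 in Eldr cKI and 18158, 19049 and 10026 in control. Eldr cKI replicate 1, the lowest library, is the one in which predicted genes took 67.3% of FPKM, and Eldr cKI replicate 2, the highest, has the highest sum of cardiomyocyte markers, 5391 FPKM. The part of either in these sums was not tested.

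The make-up of the sum differed in complex V, the ATP synthase. It took 22.7%, 22.3% and 25.1% of the subunits' FPKM in Eldr cKI, against 19.0%, 17.8% and 18.4% in control, so that the groups did not overlap, a pattern noticed after the values were seen. This share does not depend on the scaling of a library. The difference between the groups rests largely on Atp5a1 and Atp5b. These were left out of the sums in an alternative added after the values were seen. The shares were then 15.9%, 13.7% and 14.6% in Eldr cKI and 13.1%, 12.3% and 13.3% in control. The difference of means was 1.83 percentage points in place of 4.97. Of the 15 complex V genes, 6 had higher and 9 lower means in Eldr cKI. Complex I took 26.5%, 31.7% and 25.2% in Eldr cKI, against 36.5%, 32.0% and 30.05% in control, where the groups overlapped. The shares were described and not tested.

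**Figure D2:**
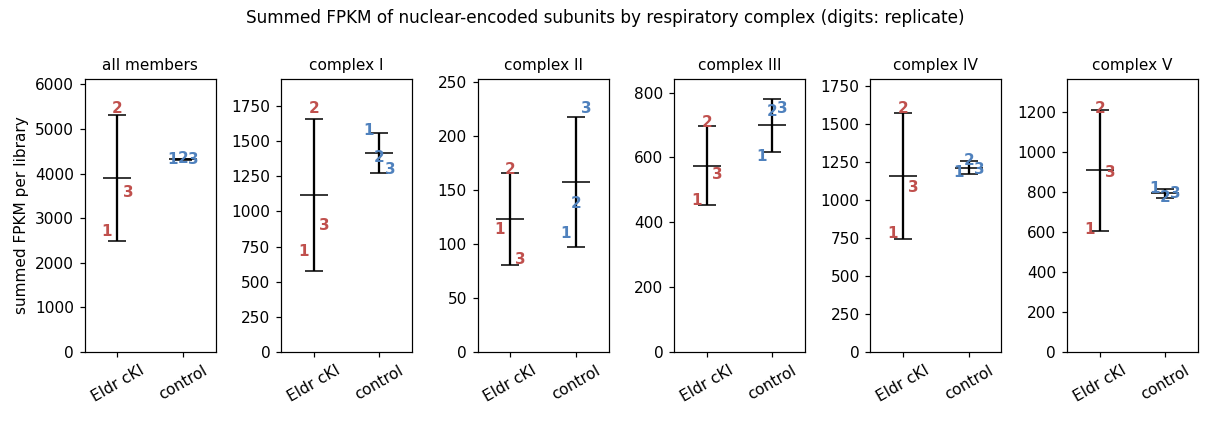
Summed FPKM per library (vertical axes, each from 0) of all 80 genes and of the genes of complexes I to V. Digits give the replicate, and bars the mean and SD (n = 3 per group). The 3 controls sit at 4309 to 4328 FPKM in the first panel, with Eldr cKI replicate 1 below and replicate 2 above them.

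The depth limits what any single gene can show. The transcripts are short, with a median of 681.5 bases, and the estimated fragments per gene had a library median of 1.74, 2.47 and 4.48 in Eldr cKI and 4.95, 1.56 and 2.24 in control. All 80 genes together had 232 to 809 estimated fragments in Eldr cKI and 232 to 596 in control. Of 480 values 50 were listed at 0 (10.4%), with 9, 9 and 11 genes in Eldr cKI and 1, 11 and 9 in control. The limit that 3 fragments set on such a value was 4.69 to 135 FPKM in Eldr cKI and 24.5 to 145 FPKM in control, covering counting error only, so a 0 does not show that a subunit was absent. The estimates use transcript lengths from GENCODE M21 and are rough. For some values above 0 they fall under 1 whole fragment, as for Ndufb5 in Eldr cKI replicate 1 (0.124).

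Of the 80 genes, 50 were above 0 in all 6 libraries (62.5%), beside 14.4% of all genes in the test. Among genes of 10 to 200 FPKM it was 66.2% of the subunits and 42.5% of the others, and the median coefficient of variation over the 6 libraries was 60.8% and 89.0%. By complex, 14 of 36 in complex I, 3 of 4 in complex II, 6 of 9 in complex III, 13 of 15 in complex IV, 13 of 15 in complex V and Cycs were above 0 throughout. Subunits with more fragments tended to have smaller fold changes. None of the 6 genes with a mean of at least 10 estimated fragments had a log2 fold change beyond 1 in either direction. Of the 50 with fewer than 5 fragments, 25 did. Of the 24 with 5 to 10 fragments, 6 did, the largest being 3.47 for Cox6a1. Among the 6 genes with at least 10 fragments, Uqcrb lay just inside that cut-off at -0.999, and was at -1.01 with a pseudocount of 0.1.

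**Figure D3:**
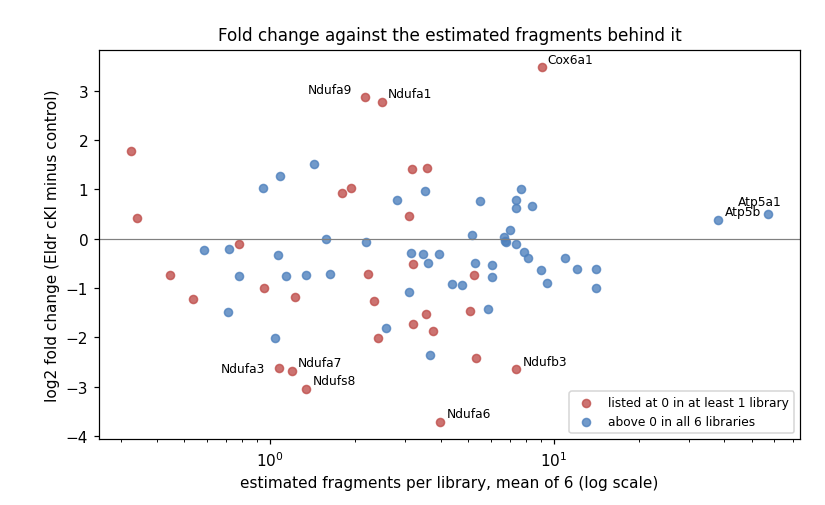
Log2 fold change (vertical axis, Eldr cKI minus control) of the 80 genes against the mean estimated fragments per library (horizontal axis, log scale). Red points are genes listed at 0 in at least 1 library, blue points those above 0 in all 6; Ndufa6 and Cox6a1 lie farthest from 0, and Atp5a1 and Atp5b, with the most fragments, lie at 0.50 and 0.38.

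**Figure D4:**
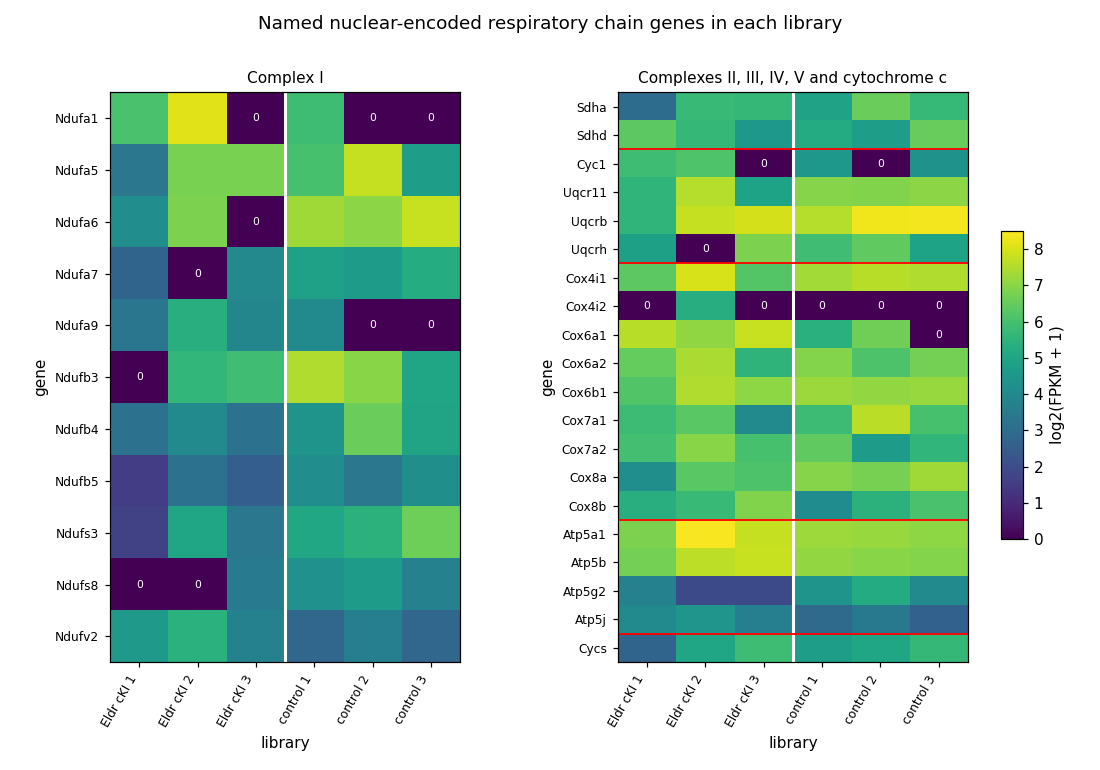
Log2(FPKM + 1) of the 31 genes taken by the rule for named genes (rows) in the 3 Eldr cKI and 3 control libraries (columns, separated by a white line), with complexes separated by red lines. A white 0 marks a value listed at 0. Over all complex I genes, 22 of 108 values were listed at 0 in Eldr cKI (8, 7 and 7 by replicate). In control it was 14 of 108 (0, 7 and 7 by replicate), and replicate 1 had the most estimated fragments of the controls (167567).

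Complex I oxidises NADH. Its core subunits lay on both sides of the comparison. Ndufv2, an iron-sulfur subunit of the NADH-oxidising end (chromosome 17, 66078795 to 66101559), was at 23.2, 42.2 and 12.4 FPKM in Eldr cKI, against 5.96, 11.7 and 5.96 FPKM in control. Every Eldr cKI library was above every control, but the lowest Eldr cKI library and the highest control lay close together, and the mean of 1.43 estimated fragments per library is at the limit of the data (log2 fold change 1.505, SE 1.38, limma adjusted p = 0.959). Ndufs3 (chromosome 2, 90894634 to 90904827), a core subunit of the arm that leads electrons to ubiquinone, was at 2.19, 31.5 and 9.43 FPKM in Eldr cKI, against 32.2, 42.7 and 98.3 FPKM in control. Ndufs8 (chromosome 19, 3908870 to 3912717), an iron-sulfur subunit of the same arm, was at 0, 0 and 10.7 FPKM in Eldr cKI, against 18.5, 24.3 and 12.3 FPKM in control. Both genes were below every control in all Eldr cKI libraries, and neither passed (limma log2 fold changes -2.35, SE 1.32, and -3.05, SE 1.44, adjusted p = 0.959 for each). The highest Eldr cKI library and the lowest control lay close together, at 31.5 and 32.2 FPKM for Ndufs3 and 10.7 and 12.3 FPKM for Ndufs8. For the Ndufs8 values at 0, 3 fragments would have been 29.7 FPKM in Eldr cKI replicate 1 and 44.3 FPKM in replicate 2, above every control. The log2 fold change of Ndufs3 was -1.51 without Eldr cKI replicate 1.

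Accessory subunits of complex I surround the core and stabilise it. Ndufa6, a small subunit of the matrix arm (chromosome 15, 82350139 to 82354291), was at 16.9, 113 and 0 FPKM in Eldr cKI, against 156, 130 and 219 FPKM in control. All Eldr cKI libraries were below all controls, yet Eldr cKI replicate 2 was close to the lowest control. The log2 fold change was -3.71 (SE 1.21, limma unadjusted p = 0.00221, adjusted p = 0.662), and it was -1.87 without Eldr cKI replicate 3. Over 16 alternatives the limma adjusted p was 0.0510 at its lowest and 1.00 at its highest.

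Ndufa7, Ndufb4 and Ndufb5, further accessory subunits, were likewise lower in every Eldr cKI library than in any control without passing. Ndufa7 was at 5.65, 0 and 15.1 FPKM in Eldr cKI, against 27.95, 24.1 and 37.1 FPKM in control. Ndufb4 was at 8.27, 15.8 and 8.17 FPKM in Eldr cKI, against 20.2, 92.9 and 30.1 FPKM in control. Ndufb5 was at 1.92, 8.23 and 4.76 FPKM in Eldr cKI, against 17.0, 9.35 and 17.7 FPKM in control, with a mean of only 0.714 estimated fragments per library. The limma log2 fold changes of the 3 genes were -2.67, -1.81 and -1.49, with an adjusted p of 0.959 for each. For the 0 of Ndufa7, 3 fragments would have been 81.9 FPKM, above every control, and its log2 fold change was -1.55 without that library. That of Ndufb4 was -1.19 without control replicate 2.

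Ndufb3, a subunit of the membrane arm, was at 0, 48.3 and 59.1 FPKM in Eldr cKI, against 179, 125 and 31.0 FPKM in control, and the groups overlapped (log2 fold change -2.65, SE 1.25, limma unadjusted p = 0.0345). It was -0.72 without Eldr cKI replicate 1. Ndufa9 and Ndufa1 had the highest log2 fold changes among the 11 genes of the complex with higher means. Ndufa1, a membrane arm subunit encoded on chromosome X, was at 65.5, 276 and 0 FPKM in Eldr cKI, against 57.0, 0 and 0 FPKM in control. Ndufa9, at the joint of the arms, was at 9.12, 40.6 and 14.0 FPKM in Eldr cKI, against 15.5, 0 and 0 FPKM in control. In both genes the difference rests on 0 values in control replicates 2 and 3, where 3 fragments would have been 112 and 84.6 FPKM for Ndufa1 and 34.9 and 26.4 FPKM for Ndufa9. Their log2 fold changes were 2.77 (SE 1.41) and 2.86 (SE 1.44), and the limma adjusted p was 0.959 for each. That of Ndufa1 was 1.08 when Eldr cKI replicate 2 was left out and 5.13 when replicate 3 was. Ndufa5, the complex I gene with the second highest mean after Ndufa6, was at 9.31, 109 and 110 FPKM in Eldr cKI, against 63.7, 212 and 26.5 FPKM in control.

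Complex II, succinate dehydrogenase, is encoded wholly in the nucleus and also works in the tricarboxylic acid cycle. Its 4 genes had 2 higher and 2 lower means, and in none were the groups apart. Sdha, the flavoprotein subunit that oxidises succinate, was at 6.98, 53.4 and 49.95 FPKM in Eldr cKI, against 28.6, 92.9 and 51.2 FPKM in control. Sdhd, a membrane anchor, was at 80.7, 49.9 and 22.4 FPKM in Eldr cKI, against 36.2, 25.3 and 91.0 FPKM in control. The log2 fold changes were -0.90 (SE 1.24) and 0.04 (SE 1.21), and both changed with single libraries: leaving out 1 library gave -1.38 to 0.0027 for Sdha and -0.38 to 0.56 for Sdhd.

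Complex III, the cytochrome bc1 complex, had 7 of 9 genes with lower means and none with groups apart. Uqcrb, a small subunit that binds near the ubiquinone site, was the highest gene of the complex, at 45.8, 216 and 245 FPKM in Eldr cKI, against 187, 321 and 329 FPKM in control. Uqcr11 was at 45.8, 188 and 29.7 FPKM in Eldr cKI, against 124, 116 and 128 FPKM in control. The controls of Uqcr11 lay close together, and Eldr cKI libraries were found on both sides of them. Uqcrh, the hinge protein that helps cytochrome c1 bind cytochrome c, was at 27.3, 0 and 113 FPKM in Eldr cKI, against 58.4, 84.9 and 29.5 FPKM in control (log2 fold change -1.86, and 0.08 without Eldr cKI replicate 2). Cyc1, cytochrome c1 itself, was at 56.4, 70.6 and 0 FPKM in Eldr cKI, against 22.4, 0 and 19.8 FPKM in control, with the 0 of Eldr cKI replicate 3 under a limit of 17.5 FPKM. Its log2 fold change of 1.03 was -0.05 without Eldr cKI replicate 2 and -0.46 without control replicate 2. Cycs, the mobile cytochrome c that the complex reduces, was at 5.68, 31.6 and 57.4 FPKM in Eldr cKI, against 26.4, 31.3 and 50.1 FPKM in control. None of these genes passed (limma, adjusted p of at least 0.959).

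Complex IV, cytochrome c oxidase, held Cox6a1, the subunit gene with the highest log2 fold change of the 80. Cox6a1, the ubiquitous form of subunit 6A (chromosome 5, 115345642 to 115348981), was at 193, 135 and 220 FPKM in Eldr cKI, against 41.3, 100 and 0 FPKM in control. Each Eldr cKI library was above each control, and the 0 of control replicate 3 allows up to 62.1 FPKM. The log2 fold change was 3.47 (SE 1.18, limma unadjusted p = 0.00330, adjusted p = 0.774), and 1.46 without control replicate 3. It passed in 1 of 16 alternatives, once predicted and mitochondrially encoded genes were dropped before rescaling (log2 fold change 4.82, limma adjusted p = 0.00222). Over the alternatives its adjusted p reached up to 1.00. How reads matching several places were counted is not given, so reads of near-identical processed copies could have been split or lost for genes such as this one.

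Cox8a, the ubiquitous form of subunit 8, had the opposite sign, at 17.6, 79.0 and 69.3 FPKM in Eldr cKI, against 122, 106 and 154 FPKM in control. All Eldr cKI libraries were below all controls (log2 fold change -1.43, SE 1.11, limma adjusted p = 0.959), and the log2 fold change was -0.76 without Eldr cKI replicate 1. Cox4i1, the core-binding subunit 4 of most tissues and the highest gene of the complex, was at 80.4, 250 and 74.3 FPKM in Eldr cKI, against 160, 190 and 180 FPKM in control. Cox6b1, on the cytochrome c side, was at 72.2, 179 and 131 FPKM in Eldr cKI, against 148, 138 and 146 FPKM in control. For both, the controls were close together and the Eldr cKI libraries lay above and below them.

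Among the isoform pairs of complex IV, Cox6a2, Cox7a1 and Cox8b are the forms of heart and skeletal muscle. All 3 were above 0 in every library. Cox6a2 was at 89.3, 168 and 45.01 FPKM in Eldr cKI, against 121, 68.8 and 104 FPKM in control. Cox7a1 was at 55.7, 79.4 and 15.6 FPKM in Eldr cKI, against 55.1, 194 and 64.2 FPKM in control. Their levels overlapped between groups, and in sum with Cox8b they made up 40.5%, 46.9% and 33.3% of the FPKM of the 3 pairs in Eldr cKI, against 43.7%, 57.0% and 53.7% in control. Skeletal muscle markers, 4 of 9 with a row, summed to 44.6 to 330 FPKM in Eldr cKI and 75.6 to 87.0 FPKM in control, below the cardiomyocyte markers in each library.

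The 3 pairs differed in direction. Cox8b, at 40.1, 53.1 and 116 FPKM in Eldr cKI against 16.5, 43.3 and 65.6 FPKM in control, took 69.5%, 40.2% and 62.7% of its pair with Cox8a in Eldr cKI and 11.9%, 28.9% and 29.8% in control, with no overlap. The share of Cox6a2 in its pair was 31.6%, 55.5% and 17.0% in Eldr cKI, against 74.5% and 40.7% in control replicates 1 and 2 and the whole pair in control replicate 3, where Cox6a1 was listed at 0, and here the groups overlapped. The share of Cox7a1 in its pair with Cox7a2 (at 60.8, 127 and 63.9 FPKM in Eldr cKI, against 85.1, 24.8 and 47.2 FPKM in control) was 47.8%, 38.5% and 19.6% in Eldr cKI and 39.3%, 88.7% and 57.6% in control. Two-sided exact permutation tests gave p = 0.1 for Cox8b, the smallest that 3 against 3 allows, and p = 0.2 for each of Cox6a2 and Cox7a1. Adjusted over the 4 pairs tested, each was 0.267. Cox8b had a mean of 2.80 estimated fragments per library, so that a share can move widely with a single fragment. Cox4i2, the form of lung and of low oxygen, reached 38.4 FPKM in Eldr cKI replicate 2 and was listed at 0 in the other libraries, and its pair with Cox4i1 gave an exact permutation p = 1.

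**Figure D5:**
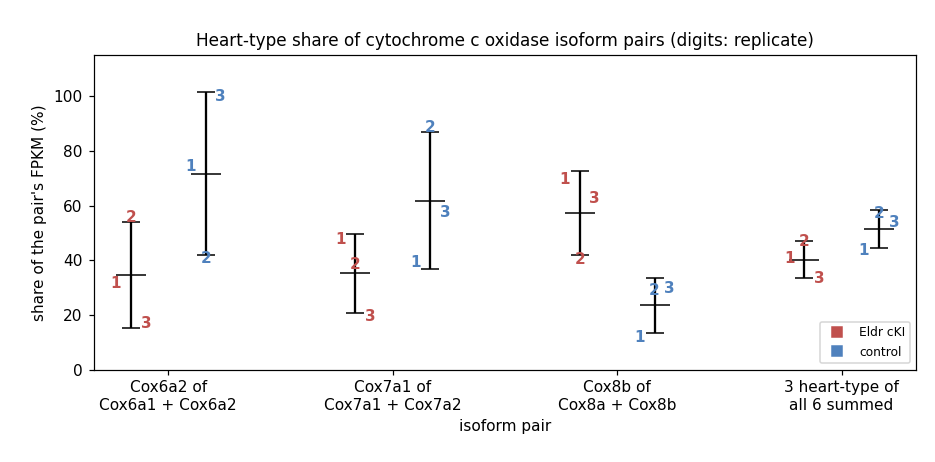
Share (vertical axis, percent) of the heart and muscle isoform in the FPKM of its pair, for Cox6a2, Cox7a1 and Cox8b and for the 3 pairs summed, in Eldr cKI (left of each pair of groups) and control. Digits give the replicate, and bars the mean and SD (n = 3 per group). Only in the Cox8b pair are the Eldr cKI libraries, at 40.2% to 69.5%, all apart from the controls, at 11.9% to 29.8%.

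Complex V, the ATP synthase, had the genes with the most fragments behind them. Atp5a1, the alpha subunit of the catalytic head, was at 112, 344 and 216 FPKM in Eldr cKI, against 153, 145 and 132 FPKM in control, and averaged 57.2 estimated fragments per library. Atp5b, the beta subunit that carries the catalytic sites, was at 105, 202 and 222 FPKM in Eldr cKI, against 138, 126 and 122 FPKM in control. In both genes Eldr cKI replicates 2 and 3 were above all controls and replicate 1 was below them (limma log2 fold changes 0.50, SE 0.96, and 0.38, SE 0.99, adjusted p = 0.999 for each). The log2 fold change of Atp5a1 was 0.92 when Eldr cKI replicate 1 was left out and 0.12 when replicate 2 was. That of Atp5b was 0.72 when Eldr cKI replicate 1 was left out and 0.18 when replicate 3 was.

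The membrane ring of the enzyme is built from subunit c, which the genes Atp5g1, Atp5g2 and Atp5g3 encode as the same mature protein. Atp5g2 (chromosome 15, 102662864 to 102672352) was at 12.4, 2.76 and 2.80 FPKM in Eldr cKI, against 20.01, 36.5 and 15.2 FPKM in control, below every control in each library. It did not pass (log2 fold change -2.02, SE 1.40, limma adjusted p = 0.959), and its p in the authors' deposited table was 0.0460. The mean was only 1.04 estimated fragments per library, and the Eldr cKI values came to 0.878, 0.131 and 0.457 fragments. Atp5g3, picked after its values were seen, had the highest level of the 3 and the smallest coefficient of variation of the 80 genes, 18.4%, with 77.4, 106 and 74.6 FPKM in Eldr cKI, against 92.0, 66.9 and 69.7 FPKM in control. Atp5j, the coupling factor 6 of the stalk (chromosome 16, 84827866 to 84835625), was at 15.2, 20.7 and 11.7 FPKM in Eldr cKI, against 6.65, 9.92 and 5.30 FPKM in control. All Eldr cKI libraries were above all controls, with a mean of 0.950 estimated fragments per library (log2 fold change 1.03, SE 1.40, limma adjusted p = 0.996; p = 0.0330 in the authors' deposited table). On the opposite strand its span overlaps Gabpa. The spans of 28 of the 80 genes overlap a gene on the opposite strand and those of 12 a gene on the same strand, and the sources used here do not say if counting kept to the strand.

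Over all complexes, groups did not overlap for 3 of 80 genes with higher values in Eldr cKI (Cox6a1, Ndufv2 and Atp5j), beside 1.25% of all genes, and for 8 with lower values (Ndufa6, Ndufa7, Ndufb4, Ndufb5, Ndufs3, Ndufs8, Cox8a and Atp5g2), beside 2.53%. Genes with a 0 in each group cannot be apart, and the subunits had fewer such values than other genes. Among genes of 10 to 200 FPKM the counts were 3 of 71 beside 1.54% of 1946 genes and 7 of 71 (9.86%) beside 3.24%. None of the 11 passed the test.

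Other genes of the pathway were read from lists. Of 40 assembly factors 34 had a row and 32 entered the test: 17 had higher and 15 lower means, 0 passed in either direction, and the median log2 fold change was 0.03. Coa3, which starts the assembly of complex IV, was the only one of the 32 at a limma unadjusted p under 0.05, beside 2.34% of all genes. It was listed at 0 in all Eldr cKI libraries and in control replicate 3, so the groups were not apart. In control replicates 1 and 2 it was at 27.4 and 123 FPKM (log2 fold change -3.93, limma adjusted p = 0.959). Of 13 mitochondrially encoded subunits, 0 were higher and 2 lower past the limma threshold, beside 0.0278% of all genes lower. The median log2 fold change over the 13 was -1.13, and their summed FPKM was 16073 to 104862 in Eldr cKI and 68980 to 293842 in control. The 2 called were mt-Nd5 and mt-Nd6, picked after their values were seen, and in both the groups overlapped. Eldr cKI replicate 2 was at 13342 and 28555 FPKM, above control replicate 1 at 7851 and 27852 FPKM. No gene of the whole table passed without the mean trend, without Eldr cKI replicate 1 or without control replicate 3, so these calls were lost there. Only 1 gene passed under quantile normalization, and 1 where the mean had to reach 5 FPKM, so the 2 calls cannot both have held in either. Of 19 regulators of mitochondrial biogenesis and mitochondrial DNA 14 had a row, 13 entered the test, 10 had higher means and 0 passed. Ppargc1a, a coactivator that drives mitochondrial biogenesis, was at 0, 11.1 and 18.3 FPKM in Eldr cKI, against 5.26, 2.62 and 0 FPKM in control, and Tfam, which packages mitochondrial DNA, at 0, 7.39 and 5.98 FPKM in Eldr cKI, against 0, 0 and 2.67 FPKM in control. Of 11 carriers and channels, 3 had higher and 8 lower means and 0 passed. Slc25a4, the heart and muscle form of the ADP/ATP carrier, was at 137, 289 and 155 FPKM in Eldr cKI, against 128, 275 and 205 FPKM in control, and the groups overlapped.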

How the data were processed

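RNA sequencing had been done on 6 mouse libraries, 3 Eldr cKI and 3 control, grouped by their genotype labels. The submitters' processing notes list cutadapt, HISAT2 2.0.5 and StringTie. They also name hg19, whereas the table holds mouse identifiers and loci, of which 67 of 80 members have the span of GENCODE M21 (GRCm38). Per the labels' protocols, libraries were stranded, made after either poly(A) isolation or depletion of ribosomal RNA. The authors' table holds, per the file headers, FPKM for each library. Per the file headers it also gives the log2 fold change, its linear ratio, and a p-value with its q-value. Other columns of per-sample values numbered 0.

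Rows with a mean FPKM of at least 0.5 (10772 of 11955) were fitted with limma 3.58.1 (R 4.3.3) on log2(FPKM + 1), with group as the only term, a mean-variance trend and Benjamini-Hochberg adjustment over all rows. The pseudocount understates changes of low genes, and SEs come from the trend across genes. FPKM held no whole counts. Depth came from the most common value of FPKM times length among genes with 1 transcript, within 0.03 on the natural log scale, taken as 1 fragment. Named genes were the isoform pairs, the 2 highest genes of each complex, the largest rise and fall in each complex of 5 or more, genes at an unadjusted p under 0.05 and genes whose groups did not overlap. The members and lists were chosen with earlier results of these data known. The Eldr transcript was not analysed here. Not every subunit gene's values are reported here.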

Additional observations from a re-analysis of the deposited data

How the results depend on the processing

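Of the 80 subunits, 0 passed the threshold in 15 of 16 alternatives, and 1 (Cox6a1) passed once predicted and mitochondrially encoded genes were dropped before rescaling. Over all genes the count past the threshold was 3. It was 8 with a pseudocount of 0.1, 17 with array quality weights, 5 with libraries rescaled to the same total, 1 under quantile normalization, 1 where the mean had to reach 5 FPKM, and 0 without the mean trend. Leaving out a library gave 0 (Eldr cKI replicate 1 or control replicate 3 left out) to 12 (control replicate 1 left out), and 5 with Eldr cKI replicate 2 left out. With the replicate number as a block it was 5, and 0 subunits passed. Deviations of same-numbered libraries had correlations of -0.17, 0.03 and -0.15, and those of other pairs ranged from -0.07 to 0.24. With 3 shallow libraries per group this cannot tell pairing from none, and the labels give only a shared number.

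The median log2 fold change of the subunits was -0.44 and became 0.32 once predicted genes were dropped before rescaling; it ranged from -0.54 to -0.19 without single libraries. The log2 ratio of mean summed FPKM, -0.14, became 0.68 there, and ranged from -0.46 to 0.07 without single libraries. Of 31 named genes, 22 kept their sign in every alternative run (16 a gene, but 15 for Cox4i2, which left the test without Eldr cKI replicate 2) and 9 did not (Cox4i1, Cox6a2, Cox6b1, Cyc1, Cycs, Ndufa5, Sdha, Sdhd and Uqcrh), none of them called. Leaving out 1 library moved the log2 fold change of 24 of the 31 by over 1.5 times or to another sign. The difference in the heart-type share of the summed pairs was -11.2 percentage points and ranged from -15.1 to -7.76 without single libraries. The cause of these shifts was not tested. Depth is one limit, with library medians of 1.56 to 4.95 estimated fragments per subunit.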
